A study of Drosophila melanogaster with 3 samples.

Results

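MicroRNA (miRNA) genes were set against the binding sites of Rel in whole fly larvae. The miRNA genes are the 260 annotated genes on the main chromosome arms of Drosophila melanogaster whose symbol starts with mir-, out of 17683 annotated genes there. The genes widely called bantam and let-7 are included and carry the symbols mir-ban and mir-let7. Each entry is the span of 1 precursor hairpin, 50 to 174 bp long with a median of 92 bp, so the distances below are from a hairpin and not from the start of its primary transcript. Hairpins whose gap was at most 10 kb on one arm were also counted as 1 cluster, which gave 198 clusters, 27 of them with several hairpins. The assay was chromatin immunoprecipitation and sequencing with an antibody against GFP. It was done on 3 biological replicates of 1 group. These were whole larvae at the wandering L3 stage, both sexes together, whose transgene stably expresses Rel with GFP at its N-terminus. There was no second condition, and the control experiment that the labels name was not analysed here. Whole larvae pool many tissues, so a peak cannot be given to a cell type, and the depth of the libraries is unknown.

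Rel (Relish) is the NF-κB transcription factor of the IMD immune pathway, which is cut and enters the nucleus when bacterial peptidoglycan is sensed and which switches on antimicrobial peptide genes. A miRNA gene is transcribed as a long primary transcript, from its own promoter or within a host gene, and the microprocessor cuts the hairpin out of it. Dicer-1 then frees a short duplex, and the mature strand guides Argonaute-1 to messages that pair with its seed, the bases near its 5′ end.

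Within 1000 bp of a hairpin, 41 different Rel-GFP peaks were nearest to 49 hairpins. The mature strands of miRNAs at well known loci on which the results below turn are shown here, from RefSeq release 6, with the seed (bases 2 to 8) in capitals. The first 11 have a summit within 1000 bp of the hairpin.
mir-2b-2: uAUCACAGccagcuuugaggagc
mir-2a-1: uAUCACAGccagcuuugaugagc
mir-282: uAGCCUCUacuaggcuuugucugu
mir-276a: uAGGAACUucauaccgugcucu
mir-279: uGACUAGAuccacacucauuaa
mir-958: uGAGAUUCuucuauucuacuuu
mir-277: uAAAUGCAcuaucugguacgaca
mir-275: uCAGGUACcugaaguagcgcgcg
mir-305: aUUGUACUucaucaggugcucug
mir-92a: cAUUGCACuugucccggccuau
mir-980: uAGCUGCCuugugaagggcuua
mir-996: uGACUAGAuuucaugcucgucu
mir-34: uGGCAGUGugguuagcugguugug
mir-ban: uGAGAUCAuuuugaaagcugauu
mir-317: uGAACACAgcuggugguauccagu
mir-let7: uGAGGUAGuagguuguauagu
The strands of mir-2b-2 and mir-2a-1 share a seed, as do those of mir-279 and mir-996. The last 5 strands shown come from hairpins with no optimal summit within 1000 bp.

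In 4 hairpins the summit lay inside the hairpin itself, and their DNA (RefSeq release 6, dm6 coordinates) is shown with the mature arms in capitals because the optimal summit lies on the hairpin. mir-4986 spans 3L:9733659-9733780 on the minus strand, mir-9370 spans X:11710252-11710301 on the minus strand, mir-4962 spans X:3777382-3777505 on the plus strand and mir-3642 spans 3L:11629505-11629580 on the plus strand.
mir-4986: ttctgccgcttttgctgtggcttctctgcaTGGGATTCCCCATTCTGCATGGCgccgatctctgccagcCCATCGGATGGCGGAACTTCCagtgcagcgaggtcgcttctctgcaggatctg
mir-9370: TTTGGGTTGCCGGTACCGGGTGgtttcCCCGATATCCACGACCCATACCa
mir-4962: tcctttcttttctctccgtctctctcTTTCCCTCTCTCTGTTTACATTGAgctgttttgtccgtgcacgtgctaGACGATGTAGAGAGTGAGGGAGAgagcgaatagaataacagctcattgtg
mir-3642: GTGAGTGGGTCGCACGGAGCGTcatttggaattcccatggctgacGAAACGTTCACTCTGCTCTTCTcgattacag
The summit fell on base 3 of mir-4986, base 26 of mir-9370, base 40 of mir-4962 and base 57 of mir-3642, counted from the hairpin's 5′ end. At mir-3642 the top list of replicate 3 also had a summit inside the hairpin, whereas the nearest in the top lists of replicates 1 and 2 were 1889 and 1306 bp away, a top list being the peaks of highest signal in a replicate, cut to the length of the optimal list. At the other 3 hairpins the top list of every replicate had a summit inside. All 4 hairpins lie in protein-coding host genes on the same strand, CG6749, Amun, Tlk (a kinase) and Apt1.

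The hairpin of mir-4986 overlaps the only peak of the 41 with a match to the κB consensus, the motif bound by NF-κB factors, within 100 bp of the summit. That window, 3L:9733678-9733878 on the plus strand, is shown with the match in capitals.
mir-4986 summit window: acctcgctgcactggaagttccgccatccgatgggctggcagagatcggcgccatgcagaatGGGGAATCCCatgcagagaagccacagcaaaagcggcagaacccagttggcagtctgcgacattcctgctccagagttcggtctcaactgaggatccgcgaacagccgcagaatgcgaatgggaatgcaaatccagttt
The match covers 3L:9733740-9733749 and reads as the consensus on both strands. All 10 of its bases lie inside the mature 5p arm of mir-4986, 3L:9733728-9733750, and its centre is 33 bp from the summit. A match is a description of letters and not of a bound site.

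Over all hairpins, 49 of 260 (18.8%, exact Clopper-Pearson 95% interval 14.3 to 24.1) had an optimal summit within 1000 bp, against 11.3% of the bases of the main arms. The optimal list is the authors' set of 9419 peaks kept by agreement between replicates. Within 5000 bp the count was 111 of 260 hairpins (42.7%, interval 36.6 to 49), against 32.4% of bases. With clusters counted once, 41 of 198 (20.7%, 15.3 to 27) had a summit within 1000 bp and 91 of 198 (46%, 38.9 to 53.2) within 5000 bp. These intervals cover counting error only, and hairpins of a cluster can share a peak. At both distances the hairpin share was above that of the bases and below those of other small RNA genes. Within 1000 bp, 30.3% of 290 tRNA genes and 30.9% of 269 snoRNA genes had a summit, and within 5000 bp 60.3% of tRNA genes and 87.0% of snoRNA genes did. With their clusters counted once by the same gap, 35.3% of 133 tRNA clusters and 44.8% of 105 snoRNA clusters had a summit within 1000 bp. The median hairpin lay 6406 bp from its nearest optimal summit.

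**Figure D1:**
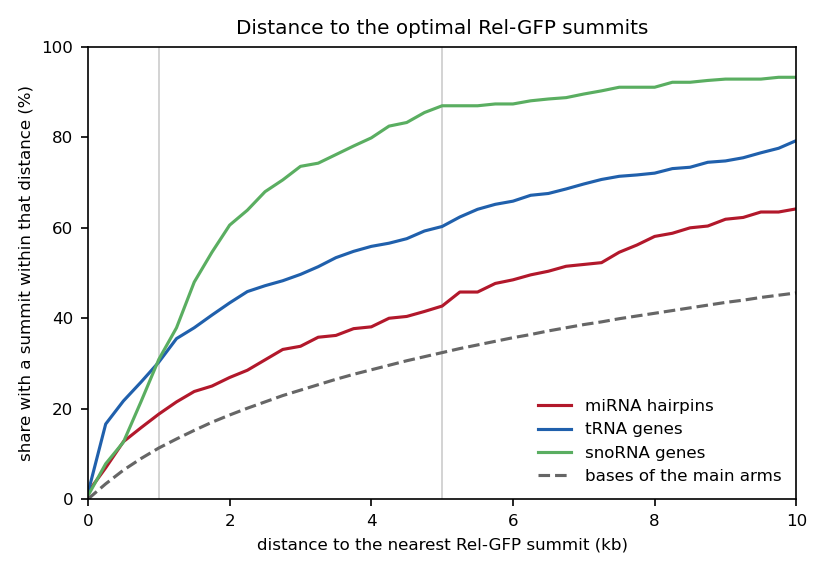
Share (%) of miRNA hairpins, tRNA genes, snoRNA genes and bases of the main arms whose nearest optimal Rel-GFP summit lies within the distance on the x axis (kb), with grey lines at the distances of 1000 and 5000 bp. At 1000 bp the hairpin curve lies between the bases and the tRNA genes, at 18.8% against 11.3% of bases and 30.3% of tRNA genes.

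The shares differed by nearness to a transcription start site (TSS). Of hairpins within 1000 bp of a TSS of another gene, 34 of 91 (37.4%, 27.4 to 48.1) had a summit within 1000 bp, against 28.4% of the bases that lie as near to a TSS. Of hairpins farther from every TSS, 15 of 169 (8.88%, 5.05 to 14.2) did, against 6.02% of such bases. Both intervals are wide, and each includes the share of the bases at the same nearness to a TSS. The 15 far hairpins were mir-4943, mir-279, mir-1016, mir-9377, mir-4959, mir-4962, mir-2a-1, mir-2a-2, mir-2b-2, mir-281-2, mir-9374, mir-277, mir-4978, mir-3642 and mir-276a. Their own distance to a TSS ran from 1023 bp at mir-279 to 6261 bp at mir-277. By arm, 16 of 55 hairpins on 2R (29.1%, 17.6 to 42.9) had a summit within 1000 bp against 12.5% of that arm's bases. On 3L 8 of 31 did (25.8%, 11.9 to 44.6) against 11.3%. On 2R mir-310 to mir-313 share 1 peak, and mir-281-1 and mir-281-2 share another. The other large arms were closer to their bases. On X 10 of 58 did (17.2%, 8.59 to 29.4) against 10.9%. On 2L 8 of 56 did (14.3%, 6.38 to 26.2) and on 3R 7 of 58 (12.1%, 4.99 to 23.3), each against 11.0%. The intervals of all the large arms overlap one another. Neither of the 2 hairpins on chromosome 4 had one.

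The shares by position relative to host genes had overlapping intervals. A hairpin was called hosted where it lay wholly inside a longer gene of the same strand. Of hairpins in protein-coding hosts, 28 of 136 (20.6%, 14.1 to 28.4) had a summit within 1000 bp, against 13.2% of the bases inside protein-coding gene spans. Of hairpins in non-coding hosts, which are mostly long non-coding RNAs that serve as the primary transcript, 8 of 45 (17.8%, 8 to 32.1) did. Of 27 hairpins antisense to a gene, 3 (11.1%, 2.35 to 29.2) did, against 18.8% of all hairpins and 11.3% of all bases of the main arms. Of intergenic hairpins, 10 of 52 (19.2%, 9.63 to 32.5) did, against 6.99% of bases outside every gene span over 500 bp. With clusters counted once, 3 of 19 antisense (15.8%, 3.38 to 39.6) and 6 of 33 intergenic ones (18.2%, 6.98 to 35.5) did. The interval of the intergenic clusters includes the 6.99% of bases. Within 5000 bp, 63 of 136 hairpins in protein-coding hosts had a summit (46.3%, against 38.7% of bases in such spans). In non-coding hosts 15 of 45 did (33.3%), as did 11 of 27 antisense hairpins (40.7%). Of intergenic hairpins 22 of 52 did (42.3%, against 18.8% of bases outside gene spans). By cluster the intergenic count within 5000 bp was 14 of 33 (42.4%, 25.5 to 60.8). Hosted hairpins together had 36 of 181 (19.9%) within 1000 bp and unhosted ones 13 of 79 (16.5%), a difference of 3.43 percentage points with overlapping intervals. That difference was 2.26 points without replicate 3, and it turned to -0.481 points when a gene on either strand counted as a host.

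**Figure D2:**
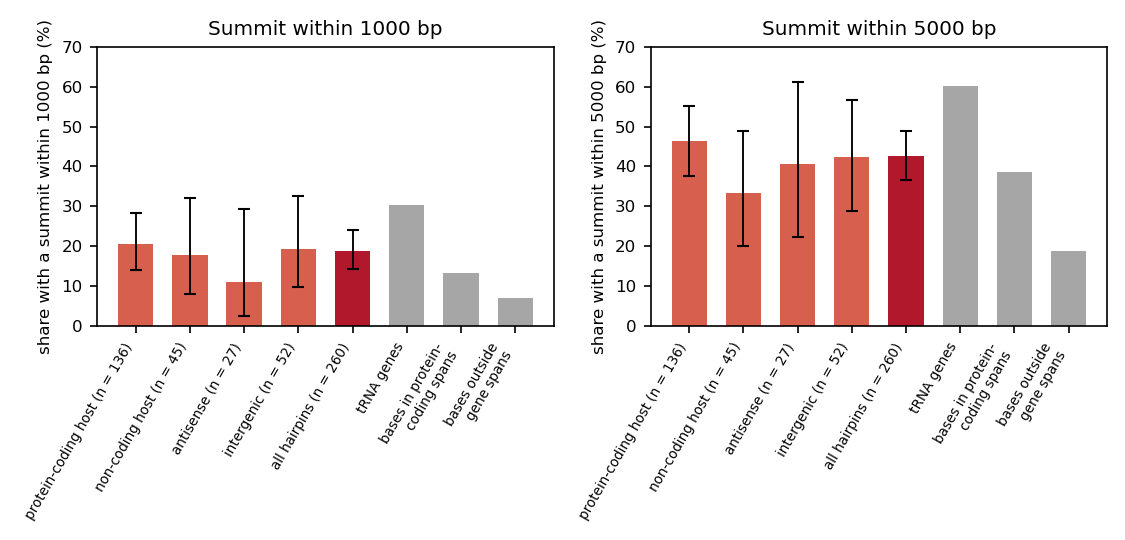
Share (%) of hairpins with an optimal summit within 1000 bp (left) and 5000 bp (right) by position class, with exact 95% intervals as error bars, then tRNA genes and bases as grey bars without intervals. The 4 classes overlap in their intervals. Intergenic hairpins are at 19.2% against 6.99% of the bases outside gene spans, and at 42.3% against 18.8%. By cluster the intergenic shares, not drawn, are 18.2% (6.98 to 35.5) and 42.4% (25.5 to 60.8), and the first interval includes the 6.99%.

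The start sites of host genes carried peaks more often than the hairpins. Of 128 protein-coding genes that host a hairpin, 75 (58.6%) had an optimal summit within 1000 bp of a TSS, against 37.9% of 13945 protein-coding genes. Host genes were also longer, with a median span of 14094 bp against 2166 bp, and had a median of 2 TSSs against 1, and the part of these in the difference was not tested. Counted over hairpins, 26 of the 28 with a summit within 1000 bp had a peak at a host TSS, as did 57 of the 108 without one. These counts are not independent, because a peak at a host TSS can itself be the summit near the hairpin. They therefore do not show that a peak at the hairpin goes with a separate one at the host TSS. Of 31 non-coding host genes, 14 (45.2%) had a summit within 1000 bp of a TSS. No share over all non-coding genes is given, and that of protein-coding genes is not a like background.

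The 3 replicates differed little in these shares. Among the 9419 peaks of highest signal in each replicate, 50 hairpins in replicate 1, 45 in replicate 2 and 47 in replicate 3 had a summit within 1000 bp, or 18.2% ± 0.968 (SD, n = 3), against 11.2%, 11.1% and 11.2% of bases in those replicates. Within 5000 bp the mean was 44.6% ± 2.77 (SD, n = 3). No share of bases is given for the top lists at that distance, and that of the optimal list was 32.4%. Of the 49 hairpins with an optimal summit within 1000 bp, 37 had one in all 3 of these top lists. The other 12 were mir-275, mir-305, mir-9374, mir-4980, mir-4978, mir-276a, mir-3642, mir-958, mir-4950, mir-277, mir-9373 and mir-4955. Over the full lists of 30000 peaks per replicate, 88, 91 and 89 hairpins had a summit within 1000 bp in replicates 1, 2 and 3. No share of bases is given for these full lists, so these counts cannot be set against the coverage of the arms. The pooled list of 30000 peaks gave 88 hairpins (33.8%), against 25.4% of bases. Of the 211 hairpins without an optimal summit within 1000 bp, 39 had a pooled one. No summit of any list lay within 1000 bp of 159 of all 260 hairpins. Neither count has a share of bases beside it.

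Several well known hairpins with no optimal summit within 1000 bp had one close by in the pooled list. A pooled summit lay inside mir-184 and mir-314 and 61 bp from mir-92b, 236 bp from mir-34, 233 bp from mir-375 and 244 bp from mir-2c. At mir-34 the top list of replicate 1 had a summit at 211 bp too, whereas those of replicates 2 and 3 had none nearer than 2967 and 1245 bp. At mir-92b the full lists of replicates 1, 2 and 3 had summits at 85, 81 and 63 bp. At mir-184 a summit lay inside the hairpin in replicates 1 and 3, and the nearest in replicate 2 was 5515 bp away. Of hairpins with no optimal summit within 1000 bp, mir-4974 in CG8671 was the only one that had a summit within that distance in the top list of every replicate, at 867, 437 and 895 bp.

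The peaks nearest to hairpins were of ordinary height. Relative signal is used below, meaning a replicate's signal at the matching summit within 100 bp, divided by the median over all its matched optimal peaks. The 41 peaks had a median signal rank of 5125 in the optimal list against 4710 over all 9419 peaks, and their ranks ran from 86 to 9139. Their mean relative signal had a median of 1.04 over the 34 peaks with a match in all 3 replicates, against 1.01 for all optimal peaks. Above the median rank stood 19 of the 41 (46.3%). A match in all 3 top lists was found for 25 of 41 (61%), against 64.3% of all optimal peaks. A summit within 500 bp of a TSS was found for 24 of 41 (58.5%), against 50.4% of all optimal summits.

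The strongest of the 41 peaks stood far above the others. At mir-4985, in an intron of Fatp3 (a fatty acid transport gene), the peak ranked 86. Its relative signals were 14.7, 13.1 and 15.4 in replicates 1, 2 and 3, a mean of 14.4 ± 1.19 (SD, n = 3). Its summit lay 142 bp from a Fatp3 start and 926 bp downstream of the hairpin. Replicate 1 also had a top summit 145 bp from mir-4985. At mir-4986 the peak ranked 677, with 3.53, 5.77 and 3.95 and a mean of 4.42 ± 1.19. No replicate of the other peaks of the 41 reached the lowest replicate of mir-4985.

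The next group lay between 2.43 and 3.38 on the same relative scale. The summit 134 bp from mir-4943, in CG5953 and 4252 bp from any start, ranked 962 and had 2.95, 4.12 and 3.08. At mir-282 the peak ranked 1001, with 3, 2.88 and 3.68. mir-966 lies 777 bp from the promoter peak of its host Pfas, a purine synthesis enzyme, which ranked 1099 with 2.84, 2.9 and 3.22. These 3 peaks overlapped in their replicate values. mir-9370 holds the peak ranked 1177, with 2.27, 2.98 and 3.42. The peak 452 bp downstream of mir-92a, at a promoter of its host jigr1, ranked 1379 with 1.88, 2.82 and 2.93. The peak 422 bp from mir-2283, at the shared promoter of Kdm3 (a histone demethylase) and CG8176, ranked 1388 with 2.48, 2.85 and 2.27. The peak beside mir-310, mir-311, mir-312 and mir-313 ranked 1459, with 1.75, 3.27 and 2.27, a mean of 2.43 ± 0.771 (SD, n = 3), replicate 2 being the highest. Each of these 7 peaks overlapped in its replicate values with its neighbours in the order.

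The rest of the 15 highest peaks ranked from 2275 to 3499, above the median rank of 4710. The peak 298 bp from mir-279 ranked 2275 with 1.55, 1.79 and 1.93. The peak 734 bp from mir-1016, in an intron of the mitochondrial fusion gene Opa1, ranked 2696 with 0.866, 1.89 and 1.56. The peak 311 bp from mir-4957, at the promoter of Top1 on the opposite strand, ranked 3080 with 1.06, 2.12 and 0.925. Of these 3 peaks, that at mir-279 alone was above the median peak in every replicate. In Tis11, whose product speeds the decay of AU-rich messages, the peak 133 bp from mir-9377 ranked 3150 with 1.51 and 1.39 in replicates 1 and 2 and no match in replicate 3. The peak 902 bp from mir-8 ranked 3482 with 1.39, 0.903 and 1.52. The peak 190 bp from mir-9388, near a start of Mes2, ranked 3499 with 1.28, 1.22 and 1.22, the narrowest spread of the 15 (1.24 ± 0.0355, SD, n = 3). The remaining 26 peaks ranked from 3659 at mir-4949 to 9139 at mir-276a.

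**Figure D3:**
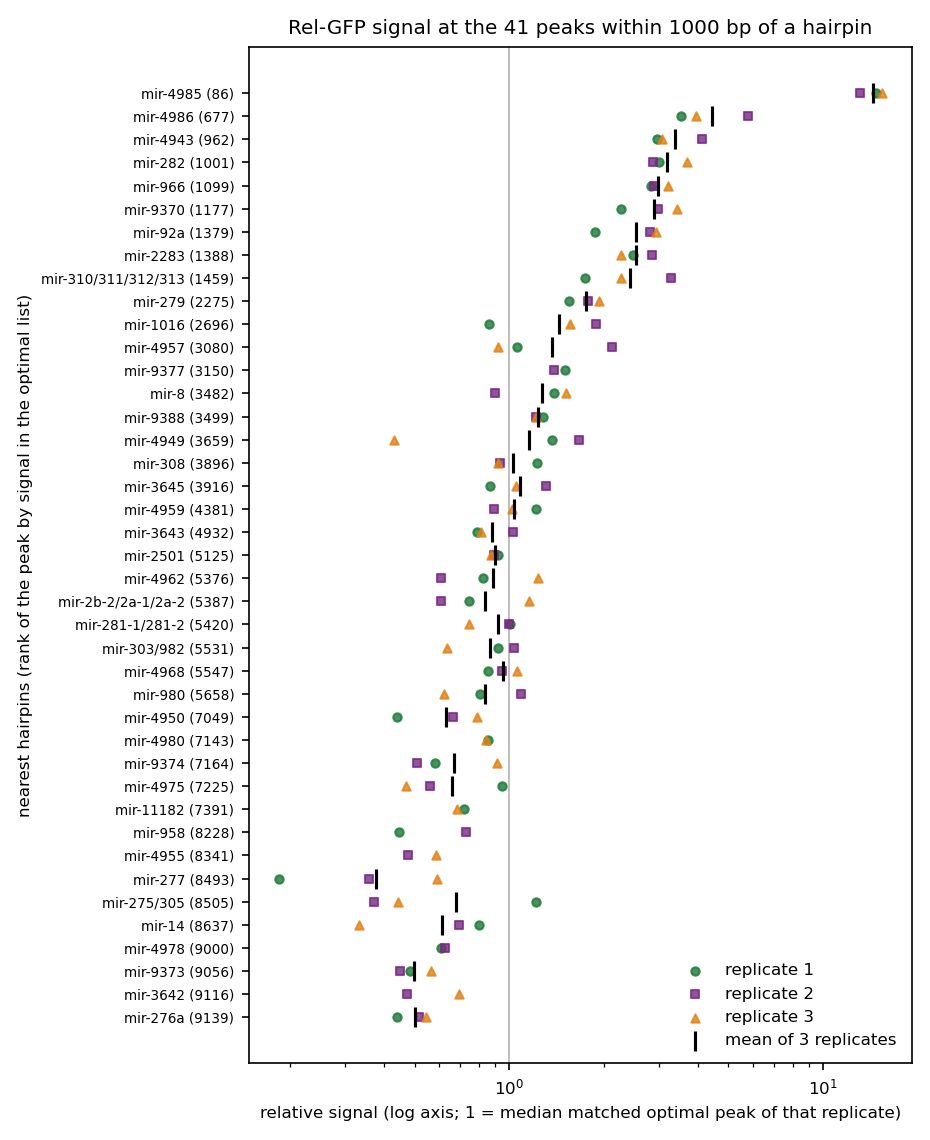
Relative signal (log axis, 1 is the median matched optimal peak of that replicate) of the 41 peaks nearest to a hairpin within 1000 bp, by replicate, with a bar at the mean where all 3 replicates have a match and the peak's rank in brackets. mir-4985 stands apart with a mean of 14.4, and the lowest mean is 0.377 at mir-277.

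Among non-coding hosts, where the annotated RNA start is a candidate start of the primary transcript, the 8 hairpins with a summit within 1000 bp were mir-282, mir-279, mir-275, mir-277, mir-276a, mir-958, mir-8 and mir-14. All but mir-277 also had a summit within 1000 bp of a start of the host RNA. mir-282 (3L:3251022-3251118) lies in lncRNA:CR43626 with the nearest summit 165 bp downstream, and further optimal summits lay 1726 and 1925 bp upstream of its 5′ end, ranked 2252 and 1176, beside a start of that RNA at 1682 bp. mir-279 (3R:29215585-29215684) restricts the number of carbon dioxide sensing neurons and damps JAK/STAT signalling. Its nearest summit was 298 bp upstream, and the peak 1149 bp upstream, 126 bp from the start of lncRNA:CR31044, ranked 204. The top lists of replicates 1, 2 and 3 held that start-site peak at 1150, 1180 and 1141 bp, with ranks of 109, 453 and 158. mir-996, in the same RNA, was 1897 bp from the nearest summit. mir-279 was thus flanked by a much higher peak than its nearest one, at the start of the host RNA.

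mir-275 (2L:7425795-7425892) lies in lncRNA:CR43857, and mir-305, which acts in intestinal stem cells, lies just past its annotated end. Their nearest summit, 441 bp upstream of mir-275 and 618 bp from mir-305, ranked only 8505, with relative signals of 1.22, 0.37 and 0.444 in replicates 1, 2 and 3. Only the top list of replicate 1 held it. Upstream of it the optimal list held a row of summits, of which those at 1349 and 2140 bp ranked 2335 and 2147. In the top lists of replicates 1, 2 and 3 the summit near 1349 bp was found at 1349, 1336 and 1342 bp. The one near 2140 bp was found at 2165, 2140 and 2164 bp. The start of the RNA lay at 1975 bp, and the optimal summit closest to it, at 1941 bp, ranked 9314 and was found in the top lists of replicates 1 and 2, at 1959 and 1941 bp, but not in that of replicate 3.

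mir-277, a regulator of branched-chain amino acid breakdown, and mir-34, known for its part in ageing and neuronal upkeep, lie in lncRNA:CR43459. The summit 340 bp upstream of mir-277 (3R:10100022-10100121) ranked 8493 and had the lowest mean relative signal of the 34 peaks, 0.377 ± 0.202 (SD, n = 3), from 0.185, 0.358 and 0.588. A stronger peak 2049 bp upstream of mir-277, ranked 2605, was found in every replicate, at 2049, 2053 and 2059 bp. mir-34 was 1254 bp from the nearest optimal summit and mir-317, the other hairpin of the cluster, 1832 bp. The replicate summits matched to the one nearest to mir-277 were thus weak in all 3 replicates. The top list of replicate 1 also held a summit 470 bp upstream of mir-277, of rank 5355 in that replicate. It lay over 100 bp from the optimal summit and so was not matched to it.

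mir-8 (2R:16831432-16831518), which promotes body growth through insulin signalling, had a summit 902 bp upstream, 159 bp from the start of lncRNA:CR43650. In the top lists the distances were 864, 943 and 902 bp. mir-14, which limits cell death and acts in ecdysone signalling, had a summit 273 bp downstream that ranked 8637, and the nearest summits of the top lists of replicates 1, 2 and 3 were 269, 338 and 422 bp away, the last of them over 100 bp from the optimal summit and so not matched to it. mir-276a, which acts in memory circuits, had one 180 bp upstream that ranked 9139. mir-958 had one 337 bp upstream, 189 bp from the start of its RNA, that ranked 8228 and had no match in replicate 3. The summits at mir-14, mir-276a and mir-958 were all weak, far down the list.

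Other non-coding loci had a peak at the host start but none at the hairpin. mir-ban (3L:642208-642288), which drives tissue growth and represses the cell death gene hid, was 1478 bp from its nearest summit, with relative signals of 1.21, 1.12 and 0.784. A summit lay 98 bp from a start of its host RNA. mir-let7, which times the larval to adult transition, was 5183 bp from a summit, mir-100 was at 5142 bp and mir-125 at 4870 bp, while a start of lncRNA:let7C had a summit at 511 bp. The optimal summit 5142 bp upstream of mir-100 ranked 1276, and the top lists held it at 5161, 5160 and 5138 bp. mir-9a, which limits sense organ precursors, was 2525 bp away with a summit 30 bp from its RNA start, and mir-10, within the Antennapedia complex, was 4034 bp away with one at 48 bp.

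**Figure D4:**
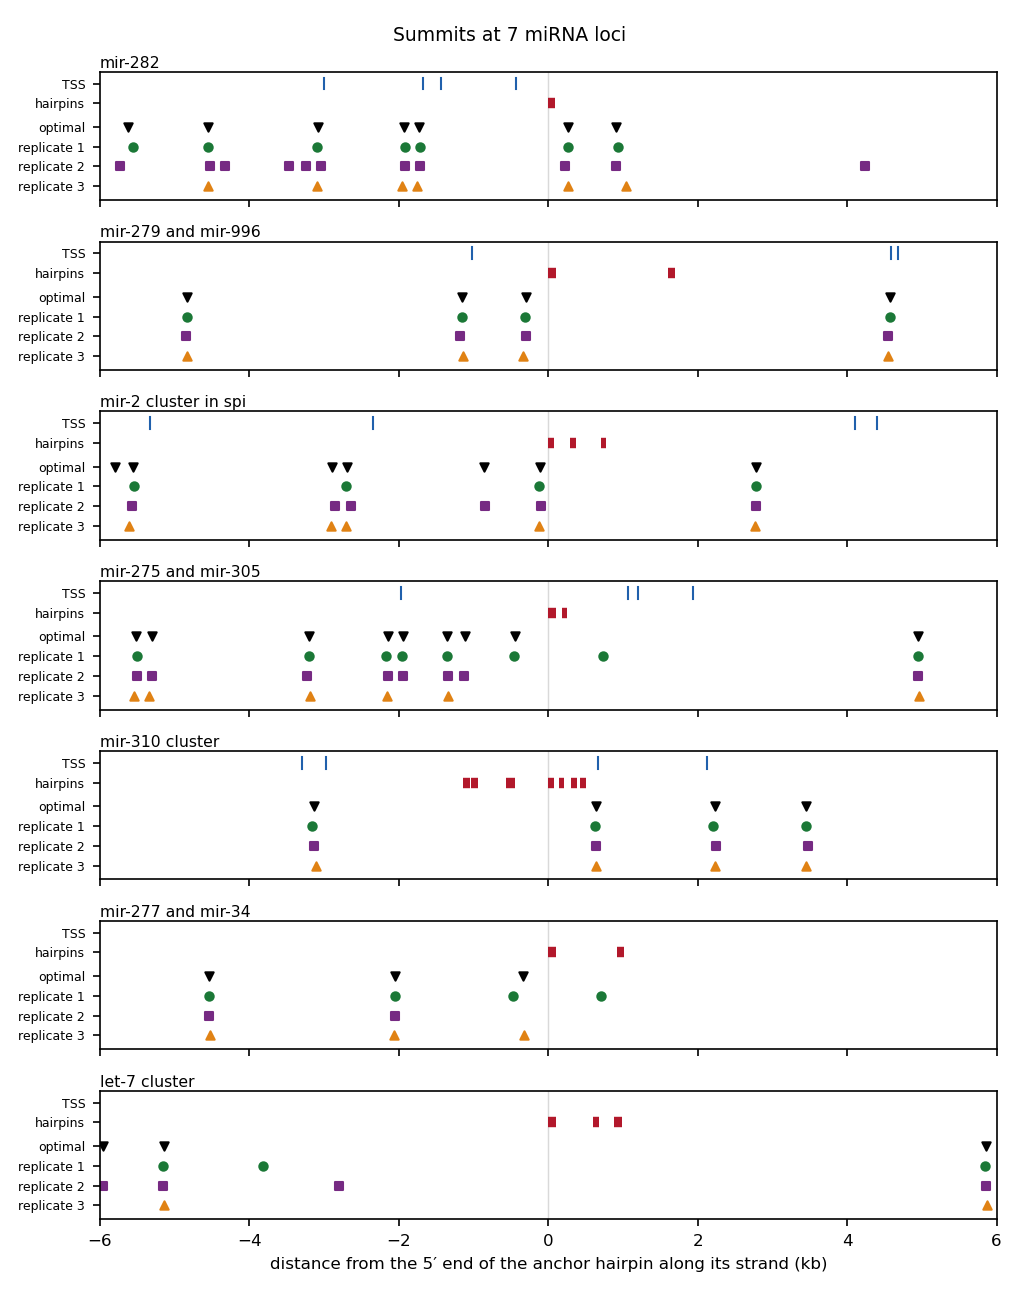
Summits of the optimal list and of the 9419 highest peaks of each replicate at 7 miRNA loci, against the distance (kb) from the 5′ end of the hairpin at 0 along its strand, with hairpins as red bars and TSSs of other genes as blue ticks. At mir-279 all 3 replicates have summits near 298 and 1149 bp upstream, whereas at the let-7 cluster no optimal summit is nearer to a hairpin than 4870 bp.

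Among hairpins in protein-coding hosts, many of the nearest peaks were the host's own promoter peak. Over all classes this held for 15 of the 41 peaks, though at mir-4985 and mir-92a the peak lay downstream of the hairpin. Besides those already given they include mir-4980 in CanB2, a calcineurin subunit, at 242 bp, mir-281-1 and mir-281-2 in Oda at 377 and 595 bp, mir-3643 in OstDelta at 554 bp, and mir-2501 in Nulp1 at 759 bp. mir-4968 in Mob2 was at 651 bp, mir-9373 in CG6231 at 23 bp, mir-4949 in ATPsynC, a subunit of ATP synthase, at 249 bp and mir-4955 in trol, which encodes perlecan, at 544 bp. These are peaks of promoters that lie near a hairpin, and the distance alone does not tie them to the miRNA. Other peaks lay within the host away from its starts. mir-2b-2, mir-2a-1 and mir-2a-2, which repress the cell death genes reaper, grim and sickle, lie in an intron of spi, the EGF receptor ligand, with 1 summit 110, 402 and 813 bp upstream of them and 2236 bp from a spi start. That peak ranked 5387, with relative signals of 0.744, 0.606 and 1.16, and its distance to mir-2b-2 was 129, 102 and 121 bp in the top lists. The remaining hairpins in such hosts were mir-9374 in the nuclear receptor gene Hr39 at 393 bp, mir-308 in RpS23 at 818 bp, mir-3645 in Mlc-c at 259 bp and mir-4959 in the innexin gene Inx5 at 957 bp. mir-4975 in CG45092 and chk was 40 bp from a summit at the start of a non-coding RNA.

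The 13 unhosted hairpins near a peak were not all separate loci. The mir-310 cluster (mir-310 at 2R:20583752-20583840) gave 4 of the 10 intergenic ones, with mir-310, mir-311, mir-312 and mir-313 lying 136, 261, 440 and 574 bp from 1 summit. That summit was 25 bp from a start of the neighbouring gene qsm and downstream of the hairpins, and the top lists put it 112, 131 and 135 bp from mir-310. The other intergenic ones were mir-303 and mir-982 at 139 and 489 bp, near a start of CG3626, mir-9388 at 190 bp, mir-4950 at 239 bp, near a tRNA gene, and mir-11182 at 97 bp, near a start of CG5726. mir-305 is counted as intergenic too, because it lies past the end of lncRNA:CR43857. The antisense ones were mir-4957 at 311 bp in Top1, mir-980 at 603 bp in CG3777, with the summit 65 bp from a start of the transcription factor gene ewg, and mir-4978 at 882 bp in mam, a Notch coactivator.

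Along the strand of the hairpin, 28 of 49 nearest summits within 1000 bp were upstream, 17 downstream and 4 inside. Within 5000 bp the summit was upstream for 60 of all 111 hairpins (54.1%, 44.3 to 63.6). Hairpins in non-coding hosts had it upstream in 12 of 15 cases (80%, 51.9 to 95.7), and those in protein-coding hosts in 38 of 63 (60.3%, 47.2 to 72.4). Both class intervals include the 54.1%. Among the 12, mir-277 and mir-34 share a summit, as do mir-279 and mir-996, so these cases are not all separate. Intergenic hairpins had it downstream in 16 of 22 cases (72.7%, 49.8 to 89.3) and antisense ones in 7 of 11. The mir-310 cluster alone gave 7 of the 16 downstream intergenic cases, all from 1 summit.

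**Figure D5:**
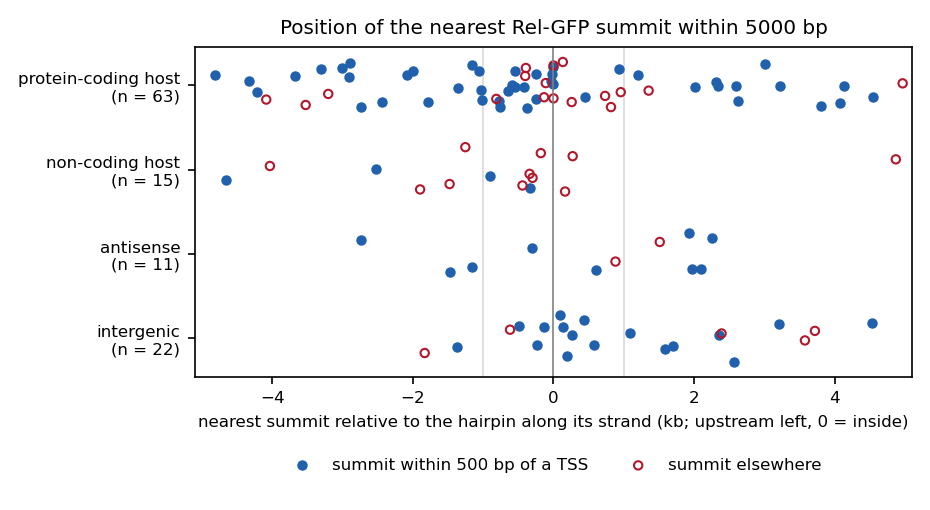
Position (kb) of the nearest optimal summit within 5000 bp of each hairpin along the hairpin's strand, upstream to the left, by position class. Filled blue points have a summit within 500 bp of a TSS and open red points do not. Of non-coding hosted hairpins, 12 of 15 have the summit upstream, against 60 of all 111 hairpins, and some of the 12 share a summit.

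Just inside 1000 bp lay mir-4985 at 926 bp and mir-4959 at 957 bp, and just outside it mir-1012 in Lerp at 1011 bp and mir-4911 in ND-23 at 1027 bp. The pair around 5000 bp was mir-125 at 4870 bp and mir-2281 at 4967 bp inside, and mir-4956 in Sxl at 5014 bp and mir-315 at 5041 bp outside. Some of the highest peaks of the whole list lay between 1000 and 5000 bp from a hairpin. mir-2493 was 1160 bp from the peak of rank 1, at the promoter of its host CG42788, with relative signals of 37.8, 65.9 and 47, a mean of 50.3 ± 14.3 (SD, n = 3). mir-4911 was near the peak of rank 234 at the spn-E promoter, with 5.43, 13.5 and 8, and mir-970 in Tomosyn was 4819 bp from the peak of rank 231, with 7.79, 11.8 and 7.9. The mean of the mir-4911 peak was 8.97 and that of the mir-970 peak 9.18, above the mean of each of the 34 peaks nearest to a hairpin with a match in all 3 replicates, except that of mir-4985. mir-9372 lies in an exon of Dredd, the caspase that cuts Rel, and was 2004 bp from the nearest summit, at the promoter of su(sable), with 0.811, 2.48 and 1.26. A TSS of Dredd had a summit at 210 bp. mir-11 and mir-998 in the cell cycle gene E2f1 were 3217 and 2599 bp from a summit at a start of InR, the insulin receptor gene.

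The functional groups of miRNAs were small. Of 18 hairpins linked to immune signalling, 7 (38.9%) had a summit within 1000 bp and 10 within 5000 bp, against 18.8% and 42.7% of all hairpins. Those 7 were mir-8, mir-277, mir-958 and the 4 of the mir-310 cluster, which share 1 peak. By cluster the count was 4 of 8, against 41 of 198 (20.7%) of all clusters. The members were chosen with earlier results of these data known, so these counts are a description only. The group's mir-959 to mir-964 cluster was at least 78289 bp from any optimal summit, and mir-981 was at 35674 bp. Of 16 hairpins of growth, survival and metabolism, 5 (31.2%) had one within 1000 bp, against 18.8% of all hairpins, and 8 within 5000 bp, against 42.7%. The 5 were mir-8, mir-14, mir-2a-1, mir-2a-2 and mir-2b-2. Of these, mir-2a-1, mir-2a-2 and mir-2b-2 share 1 peak, and by cluster the count within 1000 bp was 3 of 10, against 20.7% of all clusters. mir-278 was at 19622 bp and mir-2b-1, in the kinase gene Btk, at 19159 bp. Of 5 ecdysone and timing hairpins 1 had a summit within 1000 bp, of 4 muscle hairpins 1 did, mir-92a, and of 6 neural and sensory hairpins 1 did, mir-279. The muscle miRNA mir-1 was at 7299 bp, mir-133 at 28966 bp, the neuronal mir-124 at 81957 bp and mir-7 at 18670 bp.

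The remaining groups had no summit within 1000 bp, against 18.8% of all hairpins and 20.7% of all clusters. The early embryo and testis groups are 1 cluster each, so their 16 hairpins are only 2 loci, and those of the Hox complexes are 3. The 8 hairpins of the early embryo mir-309 cluster, which clears maternal messages, were 7141 to 8120 bp from the nearest summit and had none within 5000 bp. The 8 testis hairpins on X, mir-972 to mir-979, were 8008 to 18697 bp away. Of 4 hairpins in the Hox complexes 1 had a summit within 5000 bp, mir-10. mir-iab-4 and mir-iab-8, which are the 2 strands of 1 locus in the bithorax complex and repress Ubx, were both 8917 bp away.

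By shared seed, only the seeds of the mature strands printed above were counted, and most of those were shown because their hairpin has a peak, so the counts rank no seed. Over all hairpins 18.8% had a summit within 1000 bp and 42.7% within 5000 bp. Of the 6 hairpins with the mir-92a seed 5 had a summit within 1000 bp and 6 within 5000 bp, but 4 of them are the mir-310 cluster and rest on 1 peak. Of the 14 hairpins with the mir-2 seed, 4 had a summit within 1000 bp, mir-2a-1, mir-2a-2, mir-2b-2 and mir-308, and 6 within 5000 bp, and mir-2a-1, mir-2a-2 and mir-2b-2 rest on 1 peak. mir-980 and mir-4968 share a seed and both had one within 1000 bp. In the pairs mir-276a with mir-276b and mir-4943 with mir-317, and among mir-279, mir-286 and mir-996, a single member had one. The peaks at mir-980 and mir-4968 are different ones, as are those at mir-92a and the mir-310 cluster, and those at mir-308 and mir-2b-2.

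The κB consensus was found under 1 of the 41 peaks (2.44%, 0.0617 to 12.9), against 7.80% of all 9419 optimal summits. The interval includes the share of all summits. With a relaxed consensus, 7 of 41 (17.1%) had a match against 20.6% of all, and with a window about doubled in width 2 of 41 (4.88%) did against 9.19%.

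A list of 31 genes covers proteins that make and use miRNAs, and also siRNA proteins, decay factors and chaperones. As a whole the list had a peak within 1000 bp of a start site more often than all protein-coding genes together. Its members were chosen with earlier results of these data known, so the comparison describes the list and is not independent of those results. The margin was smaller within 5000 bp, and miRNA proteins were not counted apart from the others. Of 31 such genes, 22 (71%) had an optimal summit within 1000 bp of a TSS, against 37.9% of protein-coding genes. The count was also 22 of 31 within 500 bp, against 33.5%, and within 5000 bp, against 58.2%. AGO2, the Argonaute of small interfering RNAs and antiviral defence, had the peak of rank 2, with relative signals of 42.7, 58.8 and 48.8 (50.1 ± 8.1, SD, n = 3). AGO1, the miRNA Argonaute, had the peak of rank 723, with 3.7, 4.64 and 4.22. Dcr-1, the miRNA Dicer, had rank 858, with 3.22, 4.36 and 3.36. AGO1 and Dcr-1 overlapped in their replicate values and AGO2 stood far above both in every replicate.

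Other steps of the pathway were mixed. pasha, the partner of Drosha, had a peak 13 bp from its start, ranked 5877, with 0.615, 0.995 and 0.744. The TSS of drosha had none within 1000 bp and lay 6799 bp from a summit, and Ranbp21, the exporter of hairpins, lay 8476 bp from one. loqs, the Dicer-1 partner, ranked 7584, and gw, the GW182 protein of silencing, 5710. The trimming and tailing enzymes Nbr and Tailor ranked 1818 and 1164, and Hen1, the methyltransferase of Argonaute-2 guides, lay 20124 bp from a summit. Of the siRNA proteins, Dcr-2 ranked 4583 with 0.984, 1.06 and 0.9, and r2d2 2807 with 1.48, 0.974 and 1.8. The decay factor me31B ranked 1291 with 2.74, 2.16 and 2.99, and the chaperone Hsp83 1159 with 4.37, 1.05 and 3.58, replicate 2 being the lowest. The other genes without a peak were Cbp80, Tudor-SN, vig, DCP1, Ge-1 and Patr-1.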

How the data were processed

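Peaks were called by the authors on build dm6, per the file headers, in each replicate and on all 3 together, with a control library, and deposited 30000 peaks per list and an optimal list of 9419 kept by the irreproducible discovery rate. The aligner, the caller and the rate threshold were not given in the sources used here. The deposited signal of a peak is on the caller's scale, and the deposited −log10 q-value is a single 4.43 in the optimal list, so peaks were ranked by signal. The summit is the deposited offset added to the peak's start. Depth is unknown, since the lists hold no read counts. Fragments were 200 to 800 bp, per the labels.

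Gene spans and TSSs came from Ensembl release 115 and sequences from RefSeq release 6. All peaks and genes lay inside the RefSeq arms, and all 260 hairpins matched a RefSeq precursor. Distance is from the summit to the nearest base of the hairpin, 0 inside it. Hosts are genes over 500 bp that hold the hairpin. Shares carry exact 95% intervals. With 1 group no test between conditions was made. Named are all hairpins with a summit within 1000 bp, with replicate values for the 15 highest peaks, those next to the limits, and the functional lists with bantam and let-7. A list member that did not match the annotation was left out, and 2 miRNA genes off the main arms were not used. Lists, members and named loci were chosen with earlier results of these data known, and the loci with several summits given after their values were seen. The functions were tested on simulated data. Python 3.11.15, numpy 2.4.6, pandas 2.3.3, scipy 1.17.1 and matplotlib 3.10.9 were used. Alternatives are given in the closing section.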

Additional observations from a re-analysis of the deposited data

How the results depend on the processing

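Of 72 alternatives, 52 left a value within its spread, 19 moved it and 1 reversed it. The spread was the exact interval for shares, and the SD over replicates for the top-list mean and the relative signal. For the hosted minus unhosted difference it was 50% of the width of the interval of the hosted share. That is wider than the difference itself, so a smaller difference of the same sign could not count as moved. The share of hairpins within 1000 bp was 9.62% with the stronger 50% of optimal peaks (against 6.14% of bases), 33.8% with all pooled peaks (against 25.4%), and 12.7% and 26.9% with the distance halved and doubled (against 6.4% and 18.6%). For clusters it was 11.1% with the stronger peaks and 36.4% with the pooled ones. Within 5000 bp the hairpin share was 30% with the stronger peaks (against 21.6% of bases), 59.2% pooled (against 45.8%), and 30.8% and 64.2% with the distance halved and doubled (against 21.5% and 45.6%), and for clusters 31.3% and 63.1%. Dropping a replicate kept only optimal peaks in the top lists of the other 2 (6568 to 7023 peaks, added after seeing the data for some results). The optimal list itself still came from all 3 replicates, so the dropped one had a part in which peaks there were. The ranges were then 14.2% to 14.6% of hairpins (against 8.40% to 8.91% of bases) and 15.2% to 15.7% of clusters within 1000 bp, and 38.1% of hairpins and 39.9% of clusters within 5000 bp (against 26.7% to 27.8% of bases). The top-list mean ran from 17.7% to 18.7%, the κB share from 3.23% to 3.33%, the pathway protein share from 51.6% to 64.5% (against 29.7% to 30.8% of protein-coding genes), and the immune list share was 27.8% (against those 14.2% to 14.6% of hairpins). The median relative signal ran from 0.943 to 1.06, and was 0.929 with matches within 200 bp. The κB share was 17.1% with the relaxed consensus. The hosted minus unhosted difference, 3.43 points, ran from 2.26 to 2.81 points without a replicate and was -0.481 points when hosts on either strand counted. Where the construction does not show it, the cause was not tested. No paired analysis was possible because there was only 1 group.

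Distances are from hairpins and not from starts of primary transcripts, whole larvae mix tissues, and the lists give no depth, so weak sites cannot be told from absent ones. Only 3 replicates describe the spread.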
